A study of Rattus norvegicus with 17 samples.

Results

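Aldo-keto reductases were read out in the hippocampus of adolescent Long-Evans rats after prenatal ethanol. The genes described are Akr1b10, Akr1b7, Akr1b1, Akr1a1 and Akr7a2, 5 of the 34322 genes of the count table, chosen by symbol with the diet differences of Akr1b10 and Akr1b7 already known from earlier results of these data. Differences between the diets in these 5 genes are therefore given as a description, without p-values and with nothing read from how many passed the limits, and tests are given for sex, for side of the brain and for genes outside the list. RNA was sequenced from 5 rats whose dams drank a liquid diet with 6.7% ethanol (ET), 6 rats of pair-fed dams (PF), which received the ethanol-free liquid diet in the amount that ethanol dams took, and 6 rats of dams with free access to chow (AD). The diets ran from gestational day 0 to 20, and tissue was collected at 36 to 38 days of age. ET had 3 males and 2 females, and PF and AD had 3 of each sex by their labels. Each diet group came from 1 litter, so that diet and litter cannot be told apart, and p-values measure the spread between littermates.

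Aldo-keto reductases are enzymes of the cytosol that use NADPH to reduce aldehydes and ketones to alcohols. Members of the AKR1B branch act on sugars, on retinal and on aldehydes released from oxidized lipids, and in brain they stand beside aldehyde dehydrogenases and carbonyl reductases as routes that remove reactive carbonyls. Akr1b1 is aldose reductase, which makes sorbitol from glucose, Akr1a1 is aldehyde reductase, which reduces glucuronate, and Akr7a2 reduces succinic semialdehyde, a product of GABA breakdown. AKR1B10 is known for reducing retinal and lipid-derived aldehydes, and Akr1b7 for its expression in the adrenal gland.

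Between 10853947 and 17498392 fragments were counted per library. The study left out 3 libraries (ET replicate 2, PF animal 11f6 and AD replicate 4), and the fits use the remaining 14. These 3 libraries had far higher choroid plexus markers than the rest, with summed levels of 10 genes of 98670, 112800 and 125400 normalized counts in ET, PF and AD, against at most 16400 in the 14 others. Markers of hippocampal excitatory neurons were present in every library, with summed levels of 78540 to 116300 normalized counts over 7 genes. In 2 AD libraries (replicates 1 and 2) the Y-linked genes went against the sex label, and the sexes were compared without AD.

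The 300 bases around the annotated start of Akr1b10 and of Akr1b7, the members whose counts separated diets, are shown because the genes are neighbours in a cluster of 4 Akr1b genes. They are RefSeq windows from 250 bases before to 50 after the start in the assembly GRCr8, for Akr1b10 at chr4:64005382-64005681 and for Akr1b7 at chr4:64043720-64044019, both on the plus strand and written 5′ to 3′, with the letters of a CCAAT match in capitals.
Akr1b10: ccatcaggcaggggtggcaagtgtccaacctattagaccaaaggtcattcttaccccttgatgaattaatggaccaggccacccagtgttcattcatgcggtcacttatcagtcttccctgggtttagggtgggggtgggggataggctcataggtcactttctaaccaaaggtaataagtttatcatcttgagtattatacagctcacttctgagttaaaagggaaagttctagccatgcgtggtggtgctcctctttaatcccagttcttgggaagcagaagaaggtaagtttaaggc
Akr1b7: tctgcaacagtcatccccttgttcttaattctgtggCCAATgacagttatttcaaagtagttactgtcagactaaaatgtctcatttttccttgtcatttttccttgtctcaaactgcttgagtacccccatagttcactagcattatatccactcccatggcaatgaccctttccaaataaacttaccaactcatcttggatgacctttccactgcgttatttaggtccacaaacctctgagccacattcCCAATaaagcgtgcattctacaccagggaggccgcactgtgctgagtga
The windows of 4 of the 5 genes and of Akr1b8 were searched on both strands for the letters TGACNNNGC (the core of the antioxidant response element), TATAAA (an element of core promoters) and CCAAT (an element bound by NF-Y), which occur in 12.1%, 14.2% and 37.5% of 33469 such windows. The Akr1b7 window held 2 CCAAT matches, and none of the 3 motifs was in the windows of Akr1b10, Akr1b8, Akr1a1 and Akr7a2. No data here measured these windows.

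Akr1b10 was lower in every ET library than in every PF and AD library. Normalized counts are counts scaled by TMM, edgeR's correction for library size and composition. In ET rats Akr1b10 had 128, 90.8, 91.1, 120 and 114 normalized counts in replicates 1 to 5. In PF rats the lowest was 314, the median 363 and the highest 695. In AD rats the lowest was 333, the median 385 and the highest 440. The highest ET library was below the lowest library of either control. PF and AD overlapped, with PF replicate 2 above all other libraries. Of 16265 genes with enough counts over the 3 diets, 6 (0.0369%) had every ET library below every AD and every PF library, 37 (0.227%) had every ET library below every AD library and 665 (4.09%) had every ET library below every PF library. Because the gene was chosen for this pattern, nothing is read from these shares.

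**Figure D1:**
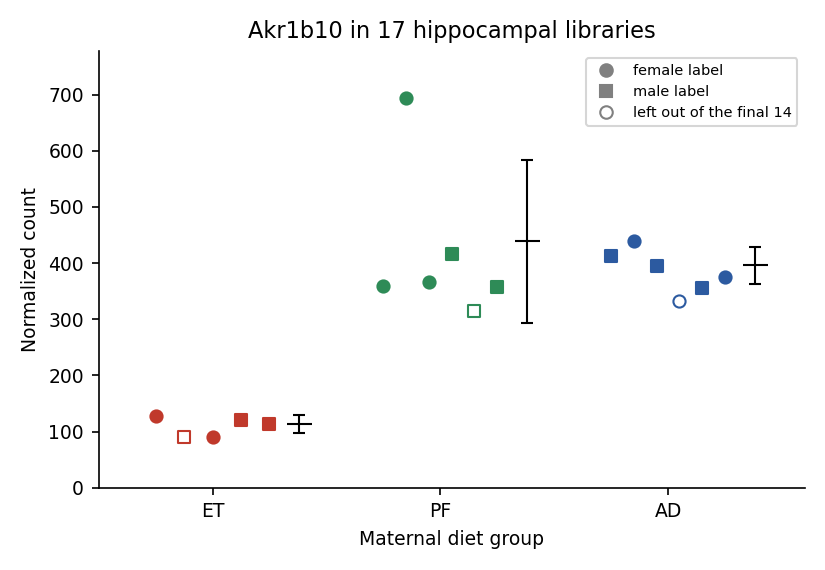
Normalized counts of Akr1b10 (y axis) in each library by diet group (x axis), with circles for female and squares for male labels, open symbols for the 3 libraries left out by the study, and black bars for the mean ± SD of the others. The ET libraries lie between 90.8 and 128, the AD libraries between 333 and 440, and the PF libraries between 314 and 416 apart from 1 at 695.

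Over the 14 libraries the means were 439 ± 145 in PF (SD, n = 5), 396 ± 32.6 in AD (n = 5) and 113 ± 15.8 in ET (n = 4). PF and AD, neighbours in this order, did not differ beyond their spread, and the gap from ET to either was larger than the spread. The log2 fold change of Akr1b10 was -1.81 (SE 0.10) in ET against AD, 3.51-fold lower in ET, and -1.96 (SE 0.22) in ET against PF, 3.89-fold lower in ET. In PF against AD it was 0.15 (SE 0.17), with a 95% interval of -0.22 to 0.52. The 2 comparisons of ET share the ET libraries, and all pairs of comparisons share a group. Leaving out PF replicate 2 gave -1.73 in ET against PF and -0.07 in PF against AD. In bulk tissue, fewer cells that express a gene and less RNA per cell cannot be told apart.

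The 3 libraries rich in choroid plexus markers had the lowest Akr1b10 of their groups, at 90.8 in ET, 314 in PF and 333 in AD. Leaving them out gave 91.1 to 128 in ET and 356 to 440 in AD, an order already fixed by the separation over all 17 libraries. Without them the choroid plexus markers still ranged from 974.8 to 15240 in ET, from 435.5 to 16400 in PF and from 107.6 to 2170 in AD, and an unadjusted p-value below 0.05 was found for 3 of 9 in ET against AD, 0 of 10 in ET against PF and 5 of 10 in PF against AD, with median log2 fold changes of 1.25, 0.07 and 1.37. For oligodendrocytes it was found for 0, 5 and 4 of 6 genes, with medians of 0.07, 0.39 and -0.29, and for blood for 0, 3 and 3 of 3, with medians of -0.06, 0.73 and -0.78. For thalamus and habenula it was found for 1, 2 and 2 of 6 genes tested, with medians of 0.25, 0.39 and -0.13 and summed levels of 1469 to 2628 in ET, 1105 to 1657 in PF and 1561 to 1766 in AD. It was found for 1, 2 and 2 of 6 microglial, 1, 1 and 0 of 6 astrocytic, 0, 0 and 0 of 6 vascular and 0, 0 and 0 of 7 neuronal genes, whose medians lay between -0.11 and 0.09. The summed level of 6 oligodendrocyte genes was 271800 to 350100 in ET, 197600 to 270600 in PF and 231200 to 327500 in AD over the 14 libraries, and that of 3 blood genes was 7519 to 10380, 3426 to 7433 and 7616 to 10940. In these 14 libraries PF lay below ET without overlap in both lists. No gene of these lists was at 0 in all libraries of a group, and no marker gene passed the threshold in any diet comparison. At most 2.13% of all genes passed it in any 1 direction. Over all genes, unadjusted p-values below 0.05 were found for 181 lower and 251 higher of 15749 in ET against AD. In ET against PF they were found for 1158 and 759 of 16068, and in PF against AD for 1081 and 1541 of 15960. The part of these cells in the Akr1b10 difference was not tested.

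Akr1b7, the next gene of the cluster, was near the floor of detection and was highest in PF rats. Its deposited counts in ET were 1.3, 1.0, 1.7, 1.0 and 0.33 in replicates 1 to 5. In AD they were 1.3 at the lowest, 3.2 at the median and 4.3 at the highest. In PF they were 7.3 at the lowest, 9.5 at the median and 21.7 at the highest, the last again in PF replicate 2. Every PF library was above every AD and ET library, whereas ET and AD overlapped. For all PF above all AD, the share was 4.27% over the 16265 genes with enough counts over the 3 diets. These are better counted than Akr1b7, and no share is given for PF above both AD and ET. Against a floor of 3 counts per library, Akr1b7 was at least 3.67-fold higher in PF than in ET, where all 5 libraries were at or under the floor. Summed counts of 67 in PF and 17 in AD gave a ratio of 3.89 per library size, with a 95% interval of 2.26 to 7.07. No fold is given for AD over ET, with summed counts of 17 and 5, since all ET libraries and the mean of the AD libraries were at or under the floor. The interval for PF over AD was computed on counts averaged over 3 technical replicates, so it is wider than the counting error of the fragments themselves. It does not cover the spread between animals. The gene had too few counts for the fits that compare diets.

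Akr1b10 had its lowest mean in ET, whereas for Akr1b7 the means of ET and AD were both under the floor and are not ranked. PF and AD overlapped for Akr1b10 but not for Akr1b7. Akr1b7 counts per 100 Akr1b10 counts averaged 2.58% ± 0.353 in PF (SD, n = 6; 2.16 to 3.03), 0.753% ± 0.269 in AD (n = 6; 0.416 to 1.13) and 1.03% ± 0.528 in ET (n = 5; 0.282 to 1.67). In the observed values all PF libraries were above all AD and ET libraries in this share, and AD and ET overlapped. All ET libraries were under the floor of 3 Akr1b7 counts, so their share and its place below PF are uncertain. Akr1b7, Akr1b8 and Akr1b10 are close paralogs, and fragments that match more than 1 of them could have been counted for either or dropped by the mapping quality filter, so that counts this low are uncertain.

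Akr1b8, the remaining small-count gene of the cluster and not on the list, had 6 summed counts in ET, 23 in PF and 15 in AD. It ranged from 0.67 to 1.7 deposited counts in ET, from 1.7 to 6.3 in PF and from 0.67 to 4.3 in AD. The groups overlapped for PF and AD, with a ratio of 1.51 (interval of 0.756 to 3.12, again computed on averaged counts). PF and ET met at 1.7, and no ratio is given for them since all ET libraries were under the floor. The gene had too few counts for the diet fits.

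**Figure D2:**
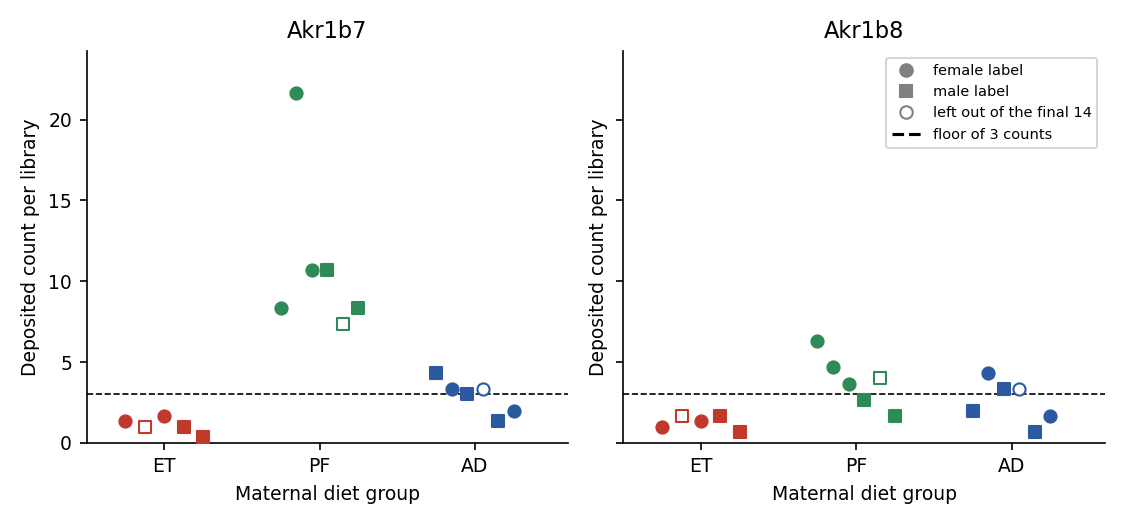
Deposited counts of Akr1b7 (left) and Akr1b8 (right) per library (y axis) by diet group (x axis), with circles for female and squares for male labels, open symbols for the 3 libraries left out, and a dashed line at 3 counts. For Akr1b7 the PF libraries lie from 7.3 to 21.7, above all AD libraries (up to 4.3) and ET libraries (up to 1.7), while for Akr1b8 the ET libraries lie at or below 1.7, the PF libraries at or above it, and AD overlaps with both.

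Akr1b1, aldose reductase and the first gene of the cluster, did not separate the diets. Its normalized counts in ET were 245, 264, 197, 231 and 206 in replicates 1 to 5. In PF they ran from 209 to 305 with a median of 248, and in AD from 227 to 260 with a median of 240. The 3 groups overlapped. The log2 fold change was -0.12 (SE 0.08, 95% interval -0.29 to 0.05) in ET against AD, -0.21 (SE 0.11, -0.45 to 0.03) in ET against PF and 0.09 (SE 0.09, -0.09 to 0.28) in PF against AD.

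Akr1a1, aldehyde reductase, had nearly the same level in the 3 diets. Its normalized counts in ET were 6088, 5350, 4994, 5416 and 5250 in replicates 1 to 5. PF rats ranged from 5008 to 5539 with a median of 5234, and AD rats from 5205 to 5534 with a median of 5372. The ranges of PF and AD lay within that of ET. The log2 fold changes were 0.02 (SE 0.06) in ET against AD, 0.04 (SE 0.07) in ET against PF and -0.02 (SE 0.04) in PF against AD, and the widest of their 95% intervals ran from -0.11 to 0.20.

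Akr7a2, the succinic semialdehyde reductase, had a lower median in PF than in AD, with some overlap. In ET its normalized counts were 319, 269, 243, 271 and 285 in replicates 1 to 5. PF rats ranged from 233 to 269 with a median of 247, and AD rats from 260 to 306 with a median of 284. PF and AD overlapped in the range of 260 to 269, and ET overlapped with both. The log2 fold change was -0.21 (SE 0.06, 95% interval -0.35 to -0.07) in PF against AD, 0.18 (SE 0.09, -0.01 to 0.37) in ET against PF and -0.03 (SE 0.08, -0.22 to 0.16) in ET against AD.

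**Figure D3:**
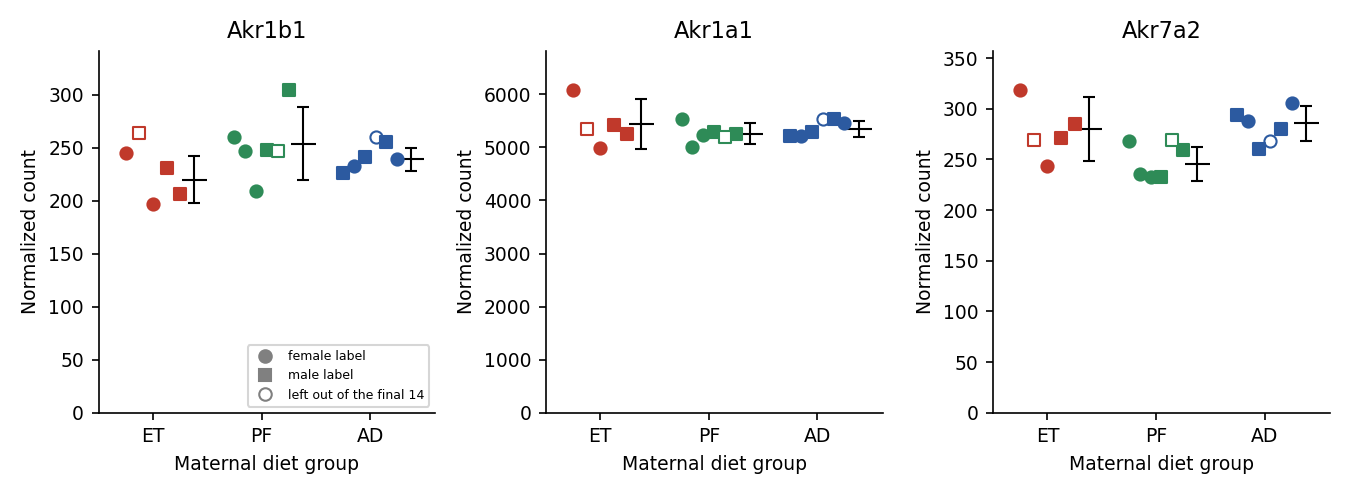
Normalized counts (y axis, from 0) of Akr1b1, Akr1a1 and Akr7a2 in each library by diet group (x axis), with the same symbols as for Akr1b10 and black bars for the mean ± SD of the libraries in the fits. The diet groups overlap in all 3 genes.

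A gene was called where the log2 fold change exceeded 1.5 in size and edgeR's quasi-likelihood test gave adjusted p-values under 0.01. Of the 5 members, 4 had enough counts, and Akr1b10, chosen with its diet difference known, was the 1 past these limits, as lower in ET than in AD and also lower than in PF. In an alternative fit with the replicate number as a block, it was not past them in ET against AD. Lower calls made up 0.0127% of the 15749 genes tested in ET against AD, where the other call was Mx2 (log2 fold change -2.56), and 2.13% of the 16068 genes tested in ET against PF. In PF against AD 0 of 4 members were past the limits, where 2.02% of 15960 genes were called higher and 0.0251% lower. These counts describe how the list was drawn and are no test of it.

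Sex and side of the brain were not used to choose the genes. With diet in the model, the log2 fold change of males over females in ET and PF was -0.14 (95% interval -0.64 to 0.35) for Akr1b10, 0.11 (-0.14 to 0.35) for Akr1b1, -0.03 (-0.19 to 0.13) for Akr1a1 and -0.01 (-0.22 to 0.20) for Akr7a2. All 4 had adjusted p = 1.0 (edgeR quasi-likelihood test), and the 5 genes called in this fit (0.0311% of 16068) were LOC100911498, Kdm5d, Eif2s3y, Uty and Ddx3. Akr1b10 had 128 and 91.1 normalized counts in the 2 ET females and 360, 695 and 366 in the 3 PF females. In males it had 90.8, 120 and 114 in ET and 416, 314 and 358 in PF. Since every ET library was below every PF library, the same order within each sex was fixed in advance, and nothing is read from it. The difference of males over females in Akr1b10 was 0.09 without PF replicate 2, and -0.25 to -0.05 with any other single library left out. The interaction of sex and diet for Akr1b10 was 0.39 on the log2 scale with a wide interval of -0.65 to 1.42 (adjusted p = 1.0 by edgeR's quasi-likelihood test), and without PF replicate 2 it was 0.01. In that fit 0 of 16484 genes were called (0.0%), and in the comparison of right and left hippocampus 0 of 16439 (0.0%).

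Between right hippocampi (2 PF and 1 AD) and the 11 left ones, with diet in the model, the log2 fold change was -0.28 (95% interval -0.65 to 0.09) for Akr1b10 and -0.70 (-1.49 to 0.10) for Akr1b7. It was 0.16 (-0.03 to 0.36) for Akr1b1, 0.02 (-0.12 to 0.16) for Akr1a1 and 0.03 (-0.16 to 0.22) for Akr7a2. Each had adjusted p = 0.9999 in the edgeR quasi-likelihood test. The value for Akr1b10 was -0.08 without PF replicate 2 and -0.46 without AD replicate 3. None of the members had an unadjusted p-value below 0.05 for sex, its interaction with diet or side, and DESeq2 called 0 members in each.

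In the rest of the family, no gene with enough counts passed the threshold in any diet comparison. The count table held 16 further aldo-keto reductases and potassium channel beta subunits of the same fold, of which 8 had enough counts. By edgeR's quasi-likelihood test 0 of 8 were called in each diet comparison, and DESeq2 also called 0. Over all genes tested by edgeR, 2 (0.0127%) were called lower and 0 higher in ET against AD. In ET against PF 343 (2.13%) were lower and 6 higher, and in PF against AD 4 (0.0251%) were lower and 323 (2.02%) higher. At such shares 0 of 8 is not read as a trait of the family. Among the 8, an unadjusted p-value below 0.05 was found for 0 in ET against AD, for 1 in ET against PF and for 3 in PF against AD. Over all genes it was found for 181 lower and 251 higher of 15749 in ET against AD. In ET against PF it was found for 1158 and 759 of 16068, and in PF against AD for 1081 and 1541 of 15960. Such p-values were thus more common over all genes too in both comparisons with PF. The median log2 fold change of the 8 genes was -0.06 in ET against AD, 0.09 in ET against PF and -0.16 in PF against AD, beside medians of 0.00280, 0.00534 and -0.00287 over all genes tested.

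The 4 most abundant of these 8 were Kcnab2, Kcnab1 and Kcnab3, beta subunits of voltage-gated potassium channels, and Akr1e2, a reductase of 1,5-anhydrofructose. In ET against AD their log2 fold changes were -0.11 (SE 0.10), -0.07 (SE 0.13), -0.06 (SE 0.21) and 0.02 (SE 0.08), all at adjusted p = 1.0 (edgeR quasi-likelihood test). The lowest value of the 8 in ET against PF was that of Akr1c14, a 3-alpha-hydroxysteroid dehydrogenase, at -0.47 (95% interval -1.27 to 0.33, adjusted p = 0.769 by the same edgeR test). Akr7a3, a paralog of Akr7a2 that acts on aflatoxin aldehydes and was named after its values were seen, had 84.1 ± 17.6 normalized counts in ET (n = 4), 61.4 ± 6.81 in PF (n = 5) and 78.6 ± 14.8 in AD (n = 5). Its log2 fold change was 0.45 (SE 0.14) in ET against PF and -0.35 (SE 0.14) in PF against AD, at adjusted p = 0.168 and 0.210 (edgeR quasi-likelihood test).

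**Figure D4:**
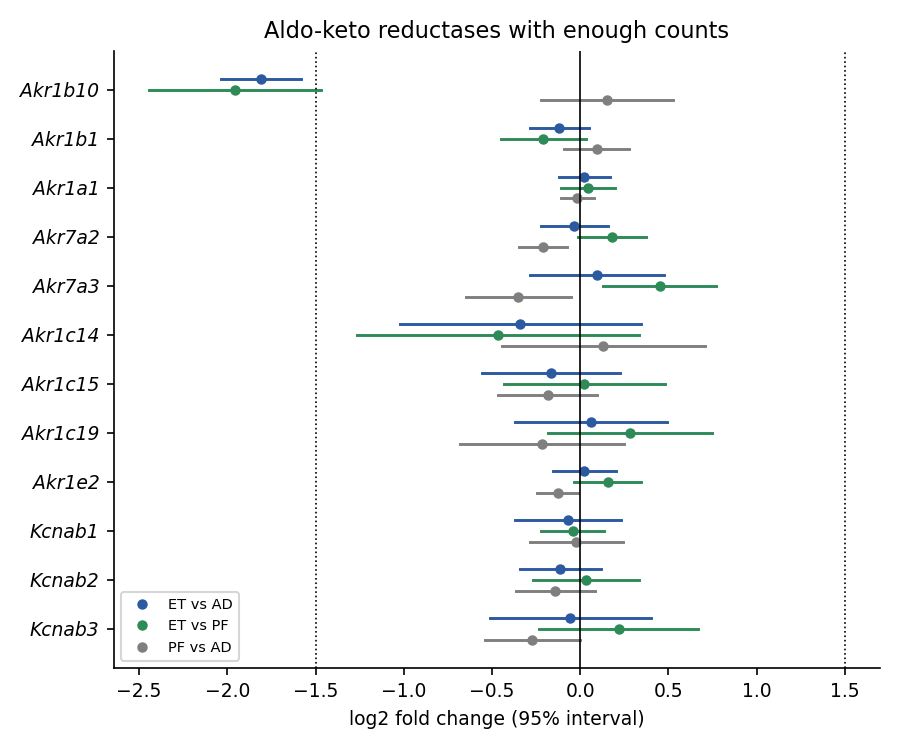
Log2 fold changes (x axis) with 95% intervals of the 12 aldo-keto reductases and related channel subunits with enough counts, for ET against AD, ET against PF and PF against AD, with dotted lines at the threshold of 1.5. Akr1b10 lies at -1.81 and -1.96 in the comparisons of ET, and all other points lie between -0.47 and 0.45.

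In GRCr8 the cluster runs in the order Akr1b1, Akr1b8, Akr1b10 and Akr1b7. Of the 10 protein-coding neighbours, 5 on each side, 9 had enough counts, and edgeR and DESeq2 called 0 of them in each diet comparison. In no diet comparison did edgeR call more than 2.13% of all genes in any 1 direction, so nothing is read from this. The log2 fold changes of the 9 neighbours in ET against AD ran from -0.08 to 0.24. An unadjusted p-value below 0.05 was found for 0 of the 9 in ET against AD and for 3 in ET against PF, 2 of them lower, and in PF against AD for 1 lower and 3 higher. Over all genes tested it was found for 181 lower and 251 higher of 15749 in ET against AD. In ET against PF it was found for 1158 and 759 of 16068, and in PF against AD for 1081 and 1541 of 15960. Bpgm, which sets the level of 2,3-bisphosphoglycerate and lies next to Akr1b7, had a log2 fold change of -0.08 (SE 0.09) in ET against AD and -0.02 (SE 0.10) in ET against PF. Slc35b4, a nucleotide sugar transporter next to Akr1b1, had 0.01 (SE 0.05) and -0.00447 (SE 0.05). The lowest adjusted p of the pair was 0.986 (edgeR quasi-likelihood test).

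**Figure D5:**
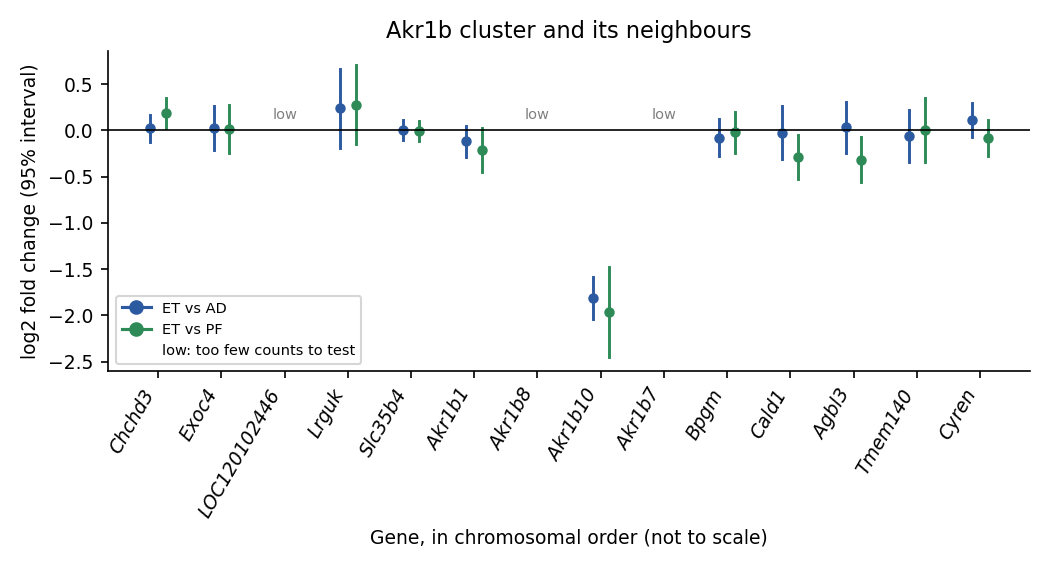
Log2 fold changes with 95% intervals (y axis) of the Akr1b genes and of 5 protein-coding genes on each side in their chromosomal order (x axis, not to scale), for ET against AD and ET against PF. Akr1b10 lies at -1.81 and -1.96, the neighbours tested lie between -0.32 and 0.28, and genes marked low had too few counts.

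Genes of the pathways in which the members work were also compared, with lists chosen with earlier results of these data known. By edgeR's quasi-likelihood test at the limits above, 0 genes of the 6 lists were called in any diet comparison, and DESeq2 called 0. At most 2.13% of all genes were called by edgeR in any 1 direction, so nothing is read from this. Unadjusted p-values below 0.05 were more common over all genes in both comparisons with PF, as given for the neighbours. Of the polyol and osmolyte genes around aldose reductase, 10 of 12 were tested, with a median log2 fold change of -0.03 in ET against AD, and 2 of them reached an unadjusted p-value below 0.05 there and 0 in the other comparisons. The most abundant were Aldoc, a brain aldolase, at -0.08 (SE 0.10) and Hk1, hexokinase, at -0.01 (SE 0.06). Of the succinic semialdehyde and GABA shunt genes, 10 of 10 were tested and 0 had an unadjusted p-value below 0.05 in any diet comparison. Glud1, glutamate dehydrogenase, had a log2 fold change of -0.00351 (SE 0.05) in ET against AD.

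Of the glucuronate and ascorbate genes, 7 of 10 were tested, with log2 fold changes in ET against AD from -0.16 to 1.86 and a median of 0.01. The highest was Kl, which is also a choroid plexus marker and is named after its values were seen (SE 0.63, unadjusted p = 0.0135, adjusted p = 1.0 in the edgeR quasi-likelihood test). An unadjusted p-value below 0.05 was found for 1 gene in ET against AD, 0 in ET against PF and 2 in PF against AD, where Kl had 1.78 (SE 0.70, adjusted p = 0.224). The most abundant, Slc23a2, a vitamin C transporter, and Ugp2, which makes UDP-glucose, had 0.08 (SE 0.06) and 0.01 (SE 0.06). Of the genes of retinal reduction and oxidation, 12 of 15 were tested, with a median of 0.02 in ET against AD, 0.11 in ET against PF and -0.07 in PF against AD, and with 0, 2 and 2 unadjusted p-values below 0.05. Rdh11, a retinal reductase, had -0.06 (SE 0.07) in ET against AD, and Cyp26b1, which breaks down retinoic acid, had -0.04 (SE 0.14) there and 0.49 (SE 0.14, adjusted p = 0.112) in ET against PF. In PF against AD it had -0.52 (SE 0.11, adjusted p = 0.0115 by the edgeR quasi-likelihood test), and Dhrs9, a retinol dehydrogenase named after its values were seen, had 0.88 (SE 0.15, adjusted p = 0.0436). Of the NRF2 list, which holds targets and also Nfe2l2 (the gene of NRF2) and Keap1 (its repressor), 14 of 15 were tested. All 14 lay between -0.10 and 0.09 in ET against AD and between -0.13 and 0.10 in ET against PF. None of the 14 had an unadjusted p-value below 0.05 in these comparisons, and 1 had in PF against AD. Tkt, transketolase, had -0.03 (SE 0.07) and Slc7a11, a cystine transporter, 0.08 (SE 0.20) in ET against AD.

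Of the aldehyde clearance genes, 14 of 18 had enough counts for ET with PF and 13 for ET with AD, with 1 unadjusted p-value below 0.05 in each. In PF against AD 14 were tested, and such a p-value was found for 1 lower and 3 higher. Aldh3a2, which oxidizes fatty aldehydes, had a log2 fold change of 0.00432 (SE 0.06) in ET against AD. Aldh7a1, an aldehyde dehydrogenase of lysine breakdown, had 822 ± 24.5 normalized counts in ET (n = 4), 1006 ± 60.2 in PF (n = 5) and 839 ± 49.9 in AD (n = 5). Its log2 fold change was -0.30 (SE 0.06) in ET against PF, at adjusted p = 0.00943 (edgeR quasi-likelihood test), and -0.03 (SE 0.06) in ET against AD. In PF against AD it was 0.27 (SE 0.05) at adjusted p = 0.0114. Cbr1, a carbonyl reductase named after its values were seen, had 127 ± 12.4 normalized counts in ET, 114 ± 14.1 in PF and 73.1 ± 7.85 in AD. It was higher in PF than in AD, with a log2 fold change of 0.64 (SE 0.11) at adjusted p = 0.0023 in the same edgeR test. In ET against AD it was 0.78 (SE 0.10) at adjusted p = 0.0751, and in ET against PF it was 0.14 (SE 0.11) at 0.775. Both genes were under the fold limit of 1.5 on the log2 scale.

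The pattern of Akr1b10 over the 17 libraries was most like that of Mx2, an interferon-induced GTPase, with a Pearson r of 0.914 on log2(CPM + 1). Serinc2 (r = 0.881), Rab2b (0.814), Egfem1 (0.805) and LOC102548672 (0.792) followed. Mx2 had 59.7 ± 11.6 normalized counts in ET (n = 4), 478 ± 105 in PF (n = 5) and 352 ± 57.4 in AD (n = 5). Serinc2, a membrane protein of the serine incorporator family, had 87.5 ± 10.6, 136 ± 20.4 and 143 ± 14.6. Within the family, r with Akr1b10 was 0.690 for Akr1b7, 0.587 for Akr1b8, 0.330 for Akr1b1, -0.136 for Akr1a1 and -0.191 for Akr7a2. These correlations are given as a description, since the 17 points share 3 diets and 3 litters and the libraries of a diet lie together.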

How the data were processed

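RNA-seq reads of 17 rat hippocampi were mapped by the authors to mRatBN7.2 with Bowtie2 2.4.2, and fragments on exons were counted with featureCounts 2.0.1 at a minimum mapping quality of 10. The deposited values are expected counts in form, averaged by the authors over 3 technical replicates and not normalized. Column heads carry animal names, tied to samples through the study's own count tables, and for 2 PF males only the group is known.

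Averaged counts were rounded, filtered with filterByExpr, scaled by TMM and compared between pairs of diets by the edgeR 4.0.16 (R 4.3.3) quasi-likelihood method, adjusted by Benjamini-Hochberg over all genes tested. The fold limit was not used for sex and side. Members and lists were chosen with earlier results of these data known. Besides the members, the text names list genes past a test, otherwise the 2 most abundant of a list (4 for the family), and the 5 most like Akr1b10. A list gene that this rule names is not reported here. The fits were tested on simulated data.

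Alternatives were DESeq2 1.42.0, median-of-ratios scaling, no filter, sums of technical replicates, sex or hemisphere as a covariate, a replicate block, all 17 libraries, 1 fit of the 3 diets and leaving out each library. Group values over 17 libraries were added after seeing the data. Gene order and promoters come from RefSeq on GRCr8, a later assembly than that of the counts, in which 27234 symbols matched. Intervals of summed counts were computed on counts averaged over 3 technical replicates and are wider than the counting error of the fragments. Neither these intervals nor the floor of 3 counts cover the spread between animals.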

Additional observations from a re-analysis of the deposited data

Results flagged for a closer look

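Among 42 groups of 5 or 6 libraries checked, 4 held a library far from the others of its diet. The limit is the 95% critical value of Dixon's test, which chance passes in about 1 in 20 groups, and the groups checked share their libraries. Akr1b10 had 695 normalized counts in PF replicate 2, against 314 to 416 in the other 5 PF libraries. Akr1b7 had 20.7 normalized counts in the same library, against 7.79 to 11.1 in the others. Akr7a3 had 72.8 normalized counts in PF replicate 6, against 55.2 to 61.7 in the other PF libraries. Akr1c19, a reductase of the AKR1C branch, had 65.9 normalized counts in AD replicate 6, against 38.02 to 47.9 in the other AD libraries. What set these libraries apart was not tested.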

How the results depend on the processing

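Akr1b10 kept its direction in ET against AD in all alternatives, with log2 fold changes from -1.87 to -1.72 when 1 library was left out and from -1.83 to -1.81 otherwise, and in ET against PF, from -2.02 to -1.73 and from -2.13 to -1.75. The number of members past the limits moved as follows. With the replicate block it was 0 in ET against AD, where Akr1b10 had a log2 fold change of -1.81 and lost its call, and the block changed no other call of a member. Same-numbered libraries had correlations of -0.24 to 0.14 over 3 pairs in ET against AD. The values were -0.022 and 0.58 over 2 pairs in ET against PF and -0.084 to 0.11 over 4 in PF against AD. So few pairs cannot show whether the numbers pair the libraries. Without the filter, and with sums of the technical replicates, it was 2 in ET against PF and 1 in PF against AD, because Akr1b7 then had enough counts. At these settings 461 of 24837 and 461 of 18184 genes were lower in ET against PF, and 485 of 25017 and 440 of 17994 were higher in PF against AD. The log2 fold change of Akr1b7 in PF against AD was 2.15 without the filter and 2.07 with sums. Against ET, where its deposited counts were all at or under the floor, fitted values are not given. With 1 library left out it was 1 to 2 in ET against PF, 2 being the value without ET replicate 3. Akr1b7 had enough counts without any 1 of the 4 ET libraries, and was past the limits in the fit without replicate 3 and not in the other 3 fits. Over all members with enough counts, 250 of 260 values with a library left out and 163 of 163 others moved by less than the spread between replicates, and 0 called values changed sign. Among all genes, 343 were past the limits as lower in ET against PF and 194 with the replicate block, a fit that also lacks PF animal 11f5, without which the fit with no block gave 322. In PF against AD 323 were higher and 4 lower, and 8 were lower without the filter and with sums.

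Depth limits Akr1b7 and Akr1b8, whose counts were at most 1.7 per library in ET and 4.3 in AD. With 1 litter per diet, the effect of a litter cannot be told apart from that of the diet.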
